A study of Mus musculus with 24 samples.

Results

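The comparison set whole brains labelled aSYN, read here as alpha-synuclein, against wild-type (wt) whole brains, all of 4-month-old mice. It used 12 of the 24 Affymetrix arrays in the study, namely the 6 labelled aSYN and the 6 labelled wt, chosen by title. The other 12 arrays, 6 labelled Hsp70 and 6 aSYN/Hsp70, entered the normalisation and the estimate of spread. Each array measured total RNA of 1 brain sample with 45101 probe sets, short sets of probes that each read part of a transcript. The labels do not say how the aSYN genotype was made, which promoter or cells drive it, or whether each sample was a different animal. The p-values therefore reflect how far these samples spread, which may be technical. Both groups carried no further allele or treatment that the labels name. The mouse gene for alpha-synuclein was not analysed here, and the probe sets therefore give no check of the aSYN label.

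Alpha-synuclein is a small presynaptic protein that binds vesicle membranes and helps the assembly of the release machinery. It is the main protein of Lewy bodies, and mutations or extra copies of its gene cause inherited Parkinson's disease. Cells handle misfolded alpha-synuclein with HSP70 chaperones, the proteasome and lysosomal autophagy, while dopamine neurons of the substantia nigra, mitochondria and microglia are the cells and organelles most studied in its toxicity. The comparison asks what an aSYN genotype alone does to the transcripts of the brain at this age.

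Levels are log2(intensity + 16) after quantile normalisation, and each difference is aSYN minus wt in log2 units, so that a difference of 1.00 would be a doubling. The 27022 brighter probe sets were tested, which covered 12929 genes, and the adjusted p-values from limma are over all of them. Array medians lay between 478 and 525 intensity units in wt and between 458 and 581 in aSYN. Each array's median Spearman correlation with the others was 0.928 to 0.937 in wt and 0.920 to 0.936 in aSYN. Xist, the RNA of the inactive X chromosome, exceeded the Y-linked genes in 4 of 6 arrays of each group. The 6 neuronal markers set for the check (among them Snap25, Syt1 and Rbfox3) all stood at or above percentile 91.3 of the tested probe sets, and 5 of 5 markers of astrocytes and of microglia were detected well enough to be tested. Of 4 red cell markers and of 4 skeletal muscle markers, 1 each was tested.

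Although every sample is labelled whole brain, genes of cerebellar neurons stood high in 1 array alone. Gabra6, the GABA receptor subunit of cerebellar granule cells, read 14.28 in wt replicate 1, against 4.87 to 10.30 in the other 5 wt arrays and 4.66 to 7.81 in aSYN. Cbln3, a granule cell cerebellin, read 11.72 there and at most 8.83 in the other 11 arrays. Fat2, a granule cell cadherin, read 11.12 there against at most 8.49 elsewhere. These 3 probe sets were too dim on average to be tested, and were named after their values were seen. Pcp2, a Purkinje cell gene, read 14.45 in wt replicate 1 and no more than 10.40 in any other of the 12 arrays. Cerebellar genes that other regions also express were well above background everywhere, yet highest in the same array. Zic1, a granule cell transcription factor, read 15.02 in wt replicate 1, 13.27 to 13.60 in the other wt arrays and 13.33 to 13.91 in aSYN. Car8 read 13.69 there, against 10.29 to 11.23 and 9.90 to 11.27. A second array stood apart in some pituitary hormones but not in all pituitary genes. Gh read 15.80, Pomc 14.89 and Cga 11.48 in wt replicate 5, each above all other arrays of the comparison. Lhb read 9.40 there, close to the 9.20 of the next wt array. Tshb at 8.81, Fshb at 4.84, Pitx1 at 5.38 and Ghrhr at 6.20 lay within the range of the other arrays. Cga and these last genes were too dim to be tested. Prl, prolactin, read 16.40 in wt replicate 5, against 6.06 to 13.18 in the other wt arrays and 5.92 to 9.39 in aSYN. Medians of the regional lists and of some other lists are given below with and without 1 of these arrays.

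Sort1, the gene of the sorting receptor sortilin, held the single probe set of 27022 past the threshold of an adjusted p of 0.05 (0.0037%). Sortilin carries lysosomal enzymes and growth factor precursors between the Golgi, the cell surface and endosomes, and binds progranulin and neurotensin. Its probe set 1423363_at read 11.54, 11.76 and 11.99 in wt (lowest, median and highest of 6 arrays) and 10.98, 11.06 and 11.13 in aSYN. The 6 aSYN arrays were all lower than the 6 wt arrays and lay close together. The level fell by 0.68 log2 units in aSYN, or 1.61-fold (SE 0.10, 95% interval -0.90 to -0.47, limma adjusted p = 0.038). A second probe set of the gene, 1450955_s_at, read 11.88, 11.98 and 12.23 in wt and 11.42, 11.62 and 11.84 in aSYN, again with no overlap between groups. It differed by -0.39 (95% interval -0.59 to -0.20) and did not pass (limma adjusted p = 0.21). The brightest probe set, 1423362_at, read 14.47, 14.70 and 14.83 in wt and 14.44, 14.55 and 14.67 in aSYN, and the groups overlapped. Its difference of -0.13 had a 95% interval of -0.29 to 0.03. The 3 probe sets of Sort1 thus gave 1 call and differences of unequal size, and the interval of the brightest one does not reach the value of the called one. With each array left out in turn, Sort1 1423363_at lost the call in 10 of 12 fits, while its difference stayed between -0.724 and -0.635. The call was also lost without quantile normalisation (limma adjusted p = 0.504), without the filter on dim probe sets (0.18), with the 12 arrays fitted alone (0.0737) and with a covariate for sex (0.0643).

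**Figure D1:**
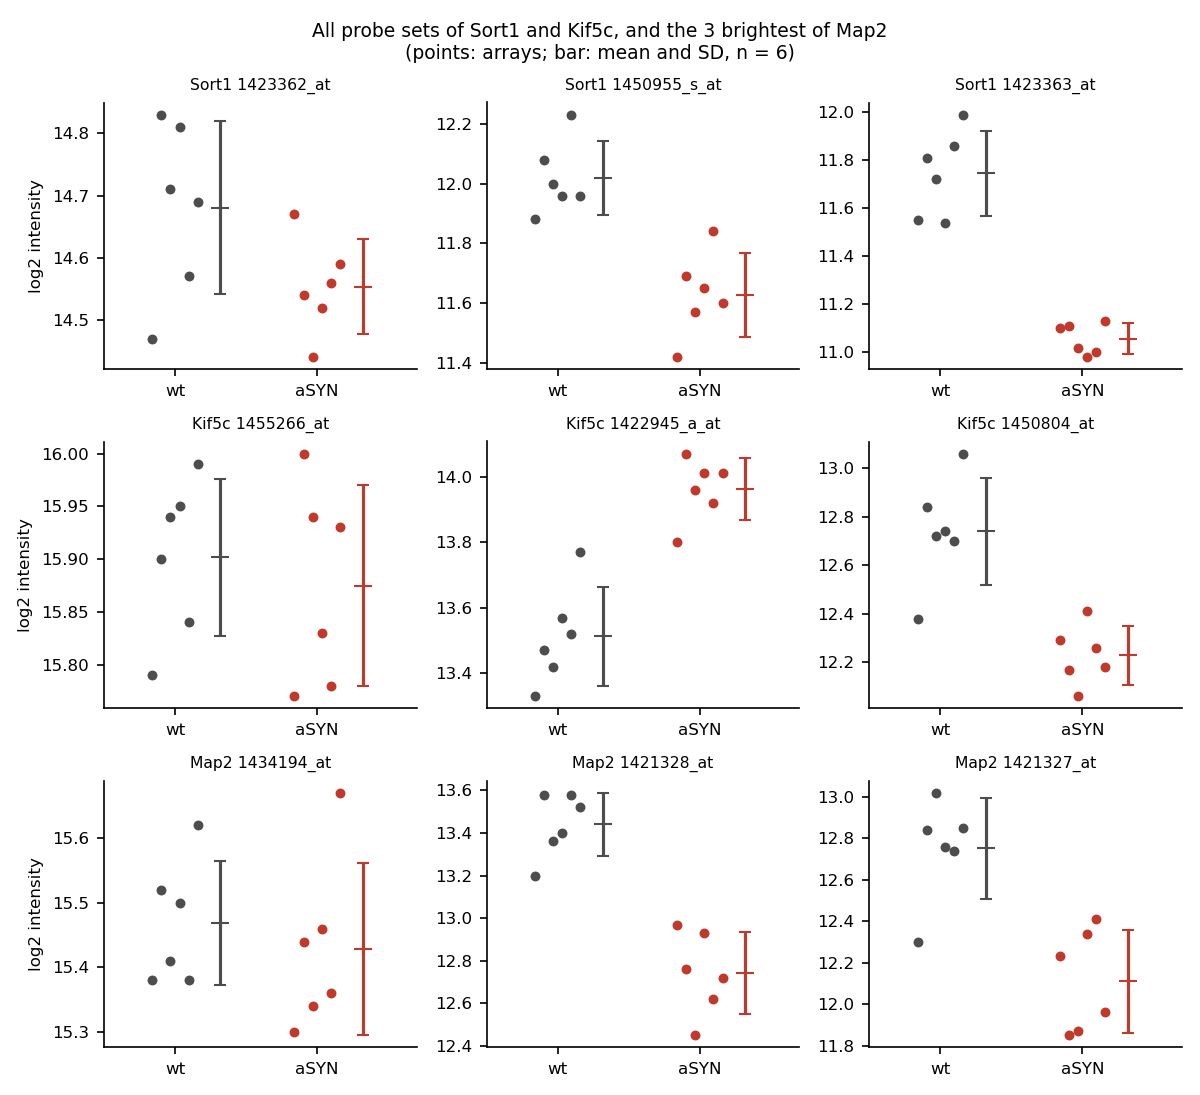
Log2 intensity of single arrays (points) for the 3 tested probe sets of Sort1, the 3 of Kif5c and the 3 brightest of Map2, in 6 wt and 6 aSYN arrays, with mean and SD as bars; each panel has its own axis. In each row the brightest probe set (left) overlaps between groups, while Sort1 1423363_at lies wholly lower in aSYN and the 2 other Kif5c panels go in opposite directions.

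Other genes of the sortilin pathway were not called. Sorl1, a related sorting receptor linked to Alzheimer's disease, differed by -0.13, -0.04 and -0.19 in its 3 probe sets, each with an interval that spanned 0. Of 22 tested genes for the sortilin family, its ligands and retromer, 9 were higher and 13 lower, with a median of -0.016. At the brightest probe set of each gene 0 passed limma's adjusted threshold and 0 an unadjusted p of 0.05. Over all 12929 genes, 2.24% were higher and 2.16% lower at that unadjusted threshold, with a median difference of 0.0082 and 52.2% of genes higher. Vps26b, a subunit of the retromer coat that recycles sortilin from endosomes, read 13.13, 13.20 and 13.27 in wt and 12.95, 13.02 and 13.12 in aSYN. Its groups did not overlap and it differed by -0.17 (limma unadjusted p = 0.0506). A dimmer probe set of Vps26b differed by -0.32 and another by -0.08, while the other subunit Vps26a differed by -0.10.

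Of the 12 genes with the smallest p in the lower direction, none but Sort1 passed (limma adjusted p from 0.0786 to 0.0951). Map2, the microtubule-associated protein of dendrites, read 13.20, 13.46 and 13.58 in wt and 12.45, 12.74 and 12.97 in aSYN at probe set 1421328_at. The groups did not overlap, and the difference was -0.70 (95% interval -0.95 to -0.45). A second Map2 probe set differed by -0.64, but the brightest one, at a median of 15.46 in wt and 15.40 in aSYN, differed by -0.04 (95% interval -0.24 to 0.16). Kif5a, the neuronal kinesin heavy chain mutated in hereditary spastic paraplegia, read 13.78, 14.09 and 14.27 in wt and 13.22, 13.49 and 13.72 in aSYN at 1450249_s_at, with no overlap. That probe set differed by -0.58, and the brightest Kif5a probe set by -0.05 (95% interval -0.21 to 0.10).

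Kif5c, a second neuronal kinesin heavy chain, was among the 12 genes of smallest p in both directions. Probe set 1450804_at read 12.38, 12.73 and 13.06 in wt and 12.06, 12.22 and 12.41 in aSYN, a difference of -0.51 with an overlap at the edge of the groups. Probe set 1422945_a_at read 13.33, 13.50 and 13.77 in wt and 13.80, 13.98 and 14.07 in aSYN, a difference of 0.45 with no overlap. The brightest, 1455266_at, differed by -0.03 (95% interval -0.17 to 0.11). The 3 probe sets therefore gave no single direction for Kif5c.

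Dnajc6, the auxilin co-chaperone that uncoats clathrin vesicles and is mutated in juvenile parkinsonism, read 13.05, 13.13 and 13.19 in wt and 12.52, 12.73 and 12.88 in aSYN at 1431216_s_at, without overlap. The difference was -0.39, against -0.10 for its brightest probe set. Rragd, a GTPase that signals amino acids to mTORC1 at the lysosome, read 10.17, 10.63 and 11.19 in wt and 8.67, 9.66 and 9.76 in aSYN at 1431164_at. It differed by -1.20 with no overlap, and its brightest probe set by -0.09. Asb7, a ubiquitin ligase adaptor, differed by -0.85 at 1450363_at, by 0.19 at a brighter probe set and by -0.03 at the brightest. Etnk1, ethanolamine kinase, differed by -0.59, -0.50 and -0.47 at 3 probe sets, and by -0.10 at the brightest and 0.10 at the dimmest. Cpd, a carboxypeptidase of the trans-Golgi, differed by -0.44 at 1418019_at, and its 7 probe sets ran from -0.51 to 0.06. Btbd3, which orients dendrites in cortex, differed by -0.46, with -0.14 at its brightest probe set.

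For the other 2 of the 12 genes, the probe set of smallest p was also the brightest. Pde10a, the phosphodiesterase of striatal projection neurons, read 13.54, 13.62 and 13.85 in wt and 12.92, 13.30 and 13.35 in aSYN, with no overlap. It differed by -0.46 (95% interval -0.65 to -0.27, limma adjusted p = 0.0951), and its 4 other probe sets differed by -0.62, -0.28, -0.27 and -0.22. Trim59, a ubiquitin ligase, read 10.98, 11.10 and 11.22 in wt and 9.98, 10.12 and 10.63 in aSYN, with no overlap. It differed by -0.87 at that probe set and by -0.71 at its other one. All tested probe sets of both genes lay on the lower side.

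None of the 12 genes of smallest p in the higher direction passed (limma adjusted p from 0.0786 to 0.342). The groups did not overlap for 6 of these 12 and for 11 of the 12 lower ones. Among all probe sets the 6 aSYN arrays lay wholly above wt in 0.344% and wholly below in 0.822%, and the p chose these genes, so the counts describe the choice. Dph5, an enzyme of diphthamide synthesis on elongation factor 2, read 10.60, 10.83 and 11.03 in wt and 11.06, 11.31 and 11.66 in aSYN. It differed by 0.54 (95% interval 0.34 to 0.75) with no overlap, while a dim second probe set differed by -0.28. Mrpl41, a protein of the mitochondrial ribosome, differed by 0.70 and 0.46 in its 2 probe sets, and the groups overlapped in both. Glrx2, the mitochondrial glutaredoxin, differed by 0.38, 0.24 and 0.20 in 3 probe sets, and 2 of these had no overlap. Timm10b, of the mitochondrial inner membrane import machinery, differed by 0.40, 0.32, 0.29 and 0.13. C1qb, the complement component made by microglia, read 11.35, 11.73 and 12.44 in wt and 12.20, 12.42 and 12.84 in aSYN at 1437726_x_at, a difference of 0.66 with overlap. Its other probe sets differed by 0.50 and, at the brightest, by 0.30 (95% interval -0.02 to 0.62).

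Lgals1, galectin 1, read 12.61, 12.79 and 12.86 in wt and 12.98, 13.16 and 13.29 in aSYN without overlap, a difference of 0.37, and its other probe set differed by 0.14. Slc6a7, the brain proline transporter of excitatory terminals, differed by 0.42 with overlap. Bend5 differed by 0.45 with no overlap, and Spats1 by 0.85 at a dim probe set and 0.18 at its brighter one. Exoc4, a subunit of the exocyst that tethers secretory vesicles, differed by 0.33 and 0.24 at 2 probe sets without overlap, but by -0.30 and -0.05 at its 2 others. Qars, glutaminyl-tRNA synthetase, differed by 0.35 at 1 probe set and by -0.01 at its brightest.

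**Figure D2:**
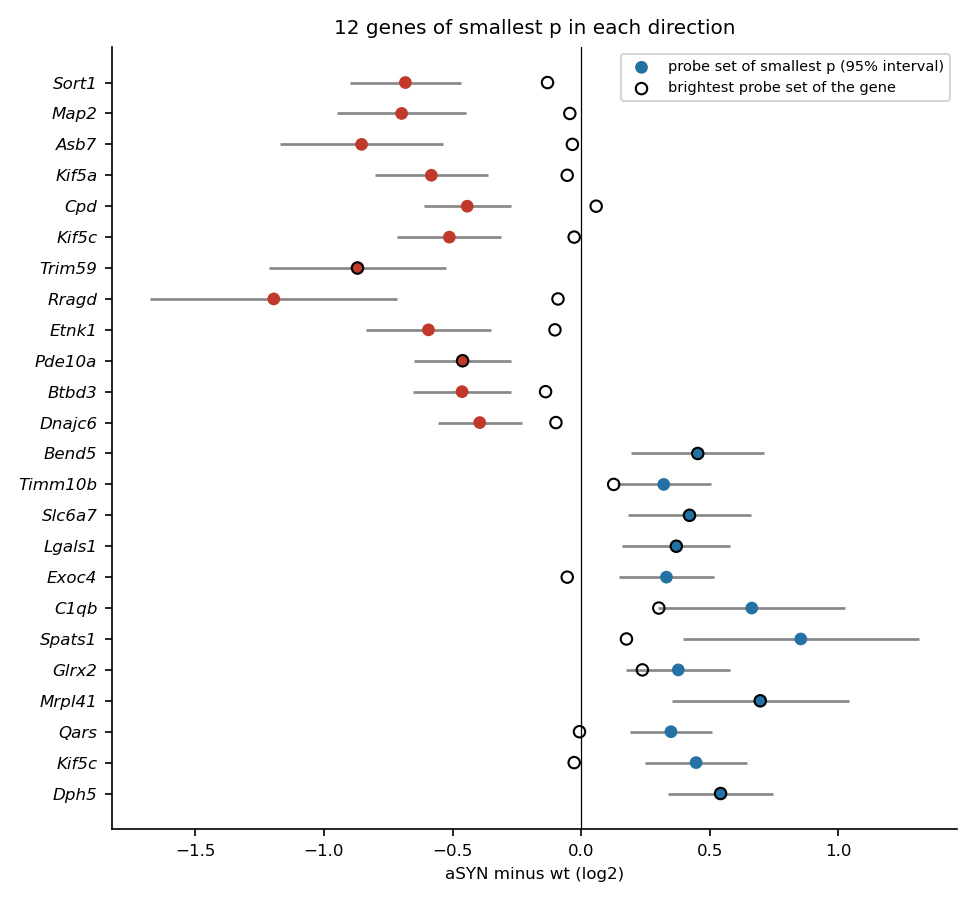
Difference aSYN minus wt (log2) for the 12 genes of smallest p in each direction, at the probe set of smallest p (filled, with 95% interval) and at the brightest probe set of the same gene (open circle; circled dots where both are the same). For 10 of the 12 lower genes and 7 of the 12 higher genes the filled point is not the brightest probe set, and there each open circle lies nearer to 0 than the filled point.

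At an unadjusted limma p under 0.05 there were 503 higher and 895 lower probe sets, 1398 in all, where 1351 of 27022 would be expected with no difference anywhere. That total depended on the arrays behind the spread: it was 2717 with the 12 arrays fitted alone, 2802 without 4 arrays of the other groups that stood apart and 3535 with array weights. The 6 aSYN arrays all lay above the 6 wt arrays for 93 probe sets (0.344%) and all below for 222 (0.822%), so 70.5% of the 315 were lower. Without quantile normalisation 25 were higher and 146 lower, or 85.4% lower. In that fit the median difference of all tested probe sets was itself lower, at -0.032 against -0.00018 in the reported fit. Among genes with several tested probe sets, the brightest ones lay wholly lower in aSYN for 44 of 6266 (0.702%) and the dimmer ones for 154 of 10661 (1.44%). For the higher direction both shares were alike, at 0.319% and 0.328%. The 154 dimmer probe sets had a median difference of -0.42, and the brightest probe sets of their 144 genes a median of -0.073, with 3 of these wholly lower in aSYN. In the higher direction 35 dimmer probe sets had a median of 0.35 and the brightest ones of their 33 genes 0.043. Since the dimmer probe sets were chosen for not overlapping, smaller differences at the others follow in part from that choice.

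**Figure D3:**
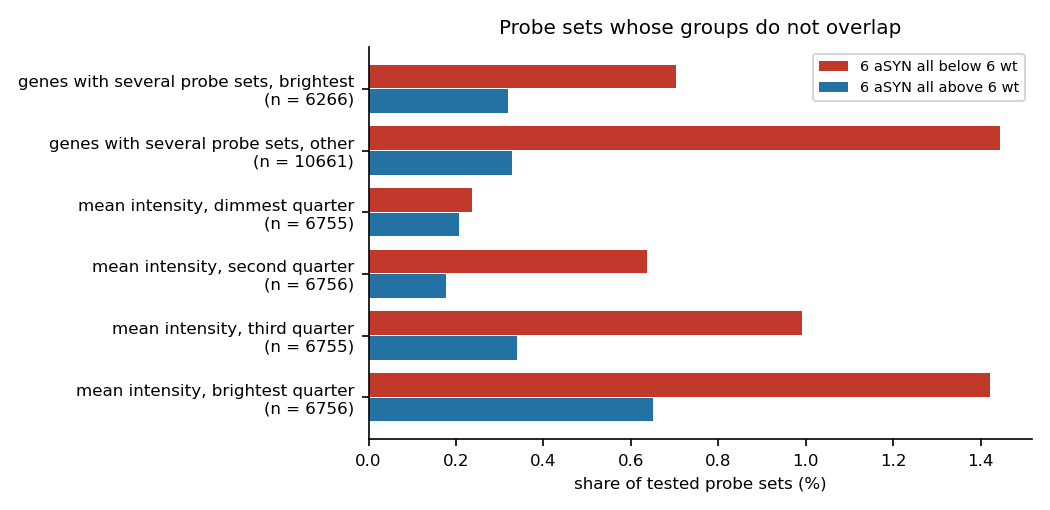
Share of tested probe sets (%) whose 6 aSYN arrays all lay below (red) or all above (blue) the 6 wt arrays, for the brightest and the other probe sets of genes with several, and by 4 classes of mean intensity. The share wholly lower is 1.44% for the dimmer probe sets of a gene against 0.702% for the brightest, and grows with intensity from 0.237% to 1.42%.

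The reach of the label along transcripts was compared between the same samples. On this array 4 mouse control transcripts are read at the 3' and the 5' end, and the log2 signal of the 3' end minus that of the 5' end is higher where RNA is broken or copied incompletely. Its mean over the 4 read 0.694, 0.860 and 1.02 in wt and 0.827, 0.992 and 1.07 in aSYN, so the groups overlapped. It differed by 0.12 (exact two-sided permutation p = 0.0887, adjusted p = 0.311 over 7 array measures). For Pcx, the control transcript with the largest value, it was 2.06 ± 0.218 in aSYN and 1.72 ± 0.234 in wt (SD, n = 6, exact permutation p = 0.026, adjusted p = 0.182). With this measure as a covariate, a fit added after seeing the data, Sort1 1423363_at differed by -0.62 and was no longer called (limma adjusted p = 0.244). The positions of probe sets along their transcripts were not used here, and the part of this measure in the differences was not tested.

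Genes of inherited parkinsonism were evenly divided. Of 14 tested, 7 were higher and 7 lower (median 0.0099), 1 in each direction had an unadjusted limma p under 0.05, and 0 passed after adjustment. Over all genes 2.24% were higher and 2.16% lower at that unadjusted threshold. Pink1, the mitochondrial kinase that recruits parkin to damaged mitochondria, read 13.57, 14.35 and 14.84 in wt and 14.51, 14.92 and 15.06 in aSYN. It differed by 0.61 (95% interval 0.18 to 1.04, limma adjusted p = 0.635). The wt arrays fell apart, with replicates 2 and 5 at 13.60 and 13.57 and the other 4 between 14.22 and 14.84. In the second Pink1 probe set the same replicates read 11.19 and 11.08, and the other 4 wt arrays 14.20 to 14.82, against 14.31 to 14.62 in aSYN. The other 4 wt arrays overlapped with aSYN in both Pink1 probe sets. Lrrk2, the kinase most often mutated in familial disease, read 11.44, 11.79 and 12.14 in wt and 11.19, 11.34 and 11.85 in aSYN, a difference of -0.36 with overlap (limma adjusted p = 0.719). Htra2, a mitochondrial protease, differed by 0.21 and 0.23 in its 2 probe sets, which overlapped. The related synucleins stood level, with Sncb at 0.06 (95% interval -0.24 to 0.36) and Sncg at 0.02 (-0.69 to 0.74), and the synphilin gene Sncaip differed by -0.18.

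Genes of dopamine neurons did not pass in any case. In whole-brain RNA fewer cells of a type and less RNA per cell cannot be told apart. Th, tyrosine hydroxylase, the rate-limiting enzyme of dopamine synthesis, read 10.63, 10.83 and 11.30 in wt and 10.36, 11.04 and 11.26 in aSYN. The groups overlapped fully, and the difference of -0.01 had a 95% interval of -0.40 to 0.39. Ddc, the next enzyme, differed by 0.05 (95% interval -0.33 to 0.43), and Slc18a2, the vesicular monoamine transporter, by 0.01 (-0.36 to 0.38). Slc6a3, the plasma membrane dopamine transporter, read 10.72, 11.10 and 11.28 in wt and 9.79, 10.97 and 11.13 in aSYN, a difference of -0.28 with overlap. Chrna6, a nicotinic receptor subunit of dopamine neurons, differed by -0.39 and the receptor Drd2 by -0.23. Without aSYN replicate 1 Slc6a3 stood at -0.0821 and Chrna6 at -0.126. Of 11 tested genes 4 were higher and 7 lower, with a median of -0.035, and 0.0569 without wt replicate 1. With all arrays the median fell on Calb1, which the cerebellar list also holds. Calb1 read 15.64 in wt replicate 1, against 14.96 to 15.22 in the other wt arrays and 15.04 to 15.21 in aSYN. Drd2 is counted in the striatal list as well. The intervals allow changes in Th of up to 0.40 log2 units either way.

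Striatal projection neurons, the main target of dopamine fibres, had 12 of 16 tested genes lower and 4 higher, with a median of -0.082. Pde10a was the 1 gene of these with an unadjusted limma p under 0.05, where 2.16% of all genes were lower at that threshold. No striatal gene passed after adjustment. Pde1b, a striatal calmodulin-dependent phosphodiesterase, read 14.55, 14.66 and 14.75 in wt and 14.40, 14.51 and 14.60 in aSYN, a difference of -0.15 with overlap. Drd2 read 11.59, 11.91 and 12.38 in wt and 11.57, 11.67 and 11.75 in aSYN.

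The chaperone and degradation systems that handle misfolded protein showed small differences. Of 13 HSP70 and HSP110 genes 4 were higher and 9 lower (median -0.056), with 0 at an unadjusted limma p under 0.05. Hspa8, the constitutive HSC70, read 17.01, 17.17 and 17.28 in wt and 16.84, 17.08 and 17.28 in aSYN, a difference of -0.11 (95% interval -0.33 to 0.10). The stress-induced Hspa1a differed by 0.16 (95% interval -0.72 to 1.03), and Hspa1b by -0.33, 0.03 and -0.33 in its 3 probe sets. Hspa1b read 13.66 in wt replicate 4, far above the wt median of 12.03, and its brightest probe set differed by -0.0265 without that array. Hspa4l, a nucleotide exchange factor of HSP70, differed by -0.22 at its brightest probe set. Among 31 co-chaperones, HSP90 and chaperonin genes, 15 were higher and 16 lower, with a median of -0.0067. Bag1, a nucleotide exchange factor that links HSP70 to the proteasome, read 13.89, 14.07 and 14.10 in wt and 14.10, 14.18 and 14.27 in aSYN. It differed by 0.15, with groups that met at 14.10 (limma unadjusted p = 0.0505). Hsp90aa1, the inducible HSP90, differed by -0.13, -0.01 and -0.01.

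Genes of the unfolded protein response and of folding in the endoplasmic reticulum were lower for 21 of 24 (median -0.13), with 0 at an unadjusted limma p under 0.05. Pdia4, a protein disulfide isomerase, read 10.51, 10.68 and 11.15 in wt and 9.91, 10.40 and 10.98 in aSYN, a difference of -0.37 (95% interval -0.79 to 0.05). Xbp1, the transcription factor of the response, differed by -0.22, -0.25 and -0.28 in its 3 brighter probe sets and by 0.25 in a dim one. Hspa5, the endoplasmic reticulum HSP70 known as BiP, read 15.46, 15.71 and 16.01 in wt and 15.23, 15.53 and 15.99 in aSYN. Its 3 probe sets differed by -0.19, -0.19 and -0.21, all with intervals that spanned 0. Groups overlapped for all of these genes.

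Proteasome genes leaned the other way. Of 40 tested subunits and activators 34 were higher and 6 lower, 5 of them higher and 0 lower at an unadjusted limma p under 0.05, against 2.24% and 2.16% of all genes. The median was 0.085, and it stayed between 0.0649 and 0.108 under 23 alternative fits, but 0 members passed after adjustment and no member separated the groups. Psmc4, an ATPase of the regulatory particle, read 13.29, 13.45 and 13.65 in wt and 13.58, 13.70 and 13.77 in aSYN. It differed by 0.21 (95% interval 0.06 to 0.36, limma adjusted p = 0.67), and its other probe set by 0.04. Psmc2, a second ATPase, read 14.66, 14.73 and 14.83 in wt and 14.82, 14.91 and 15.07 in aSYN. It differed by 0.20 with overlap at the edge, and by 0.11 and 0.09 at its other probe sets. Psmb3, a core particle subunit, differed by 0.23 and 0.10. The highest member was Psmb9, the interferon-induced immunoproteasome subunit, at 0.47 (95% interval -0.06 to 0.99). Autophagy and lysosome genes were lower for 24 of 32 (median -0.041), with 0 at an unadjusted p under 0.05. Ctsl, the lysosomal protease cathepsin L that can cleave alpha-synuclein, read 14.22, 14.33 and 14.56 in wt and 14.34, 14.54 and 14.74 in aSYN, a difference of 0.17 with overlap.

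Mitochondrial and ribosomal genes were mostly a little higher. Of 33 respiratory complex I subunits 28 were higher and 5 lower (median 0.049), with 1 higher at an unadjusted limma p under 0.05, against 2.24% of all genes. That one, Ndufb3, an accessory subunit, read 14.73, 14.83 and 14.94 in wt and 14.84, 15.03 and 15.10 in aSYN, a difference of 0.17 with overlap. Complexes II to V had 25 of 38 higher (median 0.020), led by Cyc1, cytochrome c1, at 0.16. Of 34 cytosolic ribosomal protein genes 25 were higher (median 0.036), and 0 had an unadjusted p under 0.05. Sod2, the mitochondrial superoxide dismutase, read 13.82, 13.94 and 14.05 in wt and 13.96, 14.21 and 14.26 in aSYN, a difference of 0.21 with overlap. At its second probe set, 1417193_at, it read 13.60, 13.69 and 13.71 in wt and 13.74, 13.80 and 13.88 in aSYN, with no overlap and a difference of 0.14. Its 2 dimmer probe sets differed by 0.05 and -0.08. The 25 antioxidant genes had a median of 0.019, with 15 higher. None of these genes passed after adjustment.

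Synaptic genes were balanced. Of 32 genes of synaptic vesicles and release 17 were higher and 15 lower (median 0.011). Bin1, the amphiphysin of membrane curvature, read 13.71, 13.90 and 14.04 in wt and 13.45, 13.64 and 13.82 in aSYN, a difference of -0.23 with overlap, and 0.31 at a dim probe set. Of 27 genes of glutamate receptors and the postsynaptic scaffold 12 were higher and 15 lower (median -0.013). Gria2, the AMPA receptor subunit that blocks calcium entry, read 15.46, 15.55 and 15.72 in wt and 15.34, 15.39 and 15.42 in aSYN. It differed by -0.18 (95% interval -0.31 to -0.05, limma adjusted p = 0.653) with no overlap, while its dimmer probe sets differed by 0.11 and 0.11. Dlg1, a scaffold protein, differed by -0.11 at its brightest probe set and -0.34 at a dimmer one. Among 22 GABA system and interneuron genes 9 were higher and 13 lower, with the neuropeptide Npy at 0.39 (95% interval -0.05 to 0.82) and somatostatin (Sst) at 0.19. The median of this list was -0.043, and 0.0172 without wt replicate 1. Microtubule motors had 11 of 21 higher (median 0.00032). Kif17, the dendritic kinesin that carries NMDA receptors, read 10.34, 10.71 and 11.13 in wt and 10.82, 11.22 and 11.49 in aSYN, a difference of 0.50 with overlap. Neurofilament, tubulin and microtubule-associated genes had 12 of 22 lower (median -0.017), with Map1b at 0.30 and -0.05 in its 2 bright probe sets and Nefl, the light neurofilament, at -0.08 and -0.10.

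Ciart and Dbp were the clock genes that differed most. The circadian clock runs as a loop in which BMAL1 (Arntl) and CLOCK bind E-boxes to switch on their own repressors and output genes, which therefore peak at set times of day. Of 19 tested clock genes 11 were higher and 8 lower (median 0.046), and 0 passed after adjustment. At an unadjusted limma p under 0.05, 2 were higher and 0 lower, against 2.24% and 2.16% of all genes. Ciart, a clock repressor, read 10.24, 10.47 and 11.26 in wt and 10.90, 11.55 and 11.99 in aSYN. It differed by 0.84, or 1.79-fold (95% interval 0.31 to 1.37, limma adjusted p = 0.473), and 4 aSYN arrays lay above all wt arrays while the groups overlapped. Dbp, an output transcription factor, differed by 0.53 and 0.48 in its 2 probe sets, with overlap in both. Per1, a core repressor, read 11.02, 11.31 and 11.58 in wt and 11.20, 11.74 and 12.03 in aSYN, a difference of 0.38. Arntl itself read 11.17, 11.93 and 12.09 in wt and 11.19, 11.48 and 11.85 in aSYN, a difference of -0.29 with overlap (95% interval -0.60 to 0.02). Other clock genes stood near wt, among them Nr1d2 at -0.04, Tef at -0.07, Cry1 at -0.04 and Cry2 at -0.02. The labels give no hour of sampling, so time of day and genotype cannot be told apart for these genes.

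The E-box CACGTG, which is its own reverse complement, was searched in the RefSeq promoters of these 4 genes (build GRCm38.p6, from 250 bases before to 50 after the annotated start), because BMAL1 and CLOCK bind it. It occurs in 2349 of 32851 promoters of that length (7.15%). The promoter of Ciart, at chr3:95882179-95882478 on the minus strand, holds it 3 times, at positions -116, -58 and -44 from the start. The first of 2 Per1 promoters, at chr11:69098699-69098998 on the plus strand, holds it once, at position -166. The second Per1 window and those of Dbp and Arntl do not hold these letters. Both promoters are shown 5′ to 3′ on the strand of the gene, with each E-box in capitals.
Ciart promoter: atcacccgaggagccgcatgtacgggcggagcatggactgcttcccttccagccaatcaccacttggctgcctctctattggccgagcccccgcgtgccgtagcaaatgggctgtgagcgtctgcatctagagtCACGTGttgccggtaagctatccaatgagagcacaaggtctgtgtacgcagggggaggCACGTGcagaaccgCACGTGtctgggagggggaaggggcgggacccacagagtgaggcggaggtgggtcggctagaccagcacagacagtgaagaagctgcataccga
Per1 promoter: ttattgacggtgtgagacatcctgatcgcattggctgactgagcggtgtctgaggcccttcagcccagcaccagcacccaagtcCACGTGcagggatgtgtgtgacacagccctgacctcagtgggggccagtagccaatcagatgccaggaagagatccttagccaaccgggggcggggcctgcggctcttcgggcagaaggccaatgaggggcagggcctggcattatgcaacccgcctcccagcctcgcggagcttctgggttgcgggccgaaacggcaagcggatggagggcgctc

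Immediate early genes, which neurons switch on within minutes of activity, were higher for 13 of 17 (median 0.22), with 0 at an unadjusted limma p under 0.05. The median was 0.0622 without wt replicate 5. Junb read 10.67, 11.36 and 12 in wt and 11.24, 12.13 and 12.61 in aSYN, a difference of 0.65 (95% interval -0.01 to 1.31) with wide overlap. Npas4, an activity-dependent factor of neurons, read 8.80, 10.42 and 10.56 in wt and 10.08, 10.42 and 12.14 in aSYN, so that its medians were equal and its difference of 0.58 lay in single arrays.

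**Figure D4:**
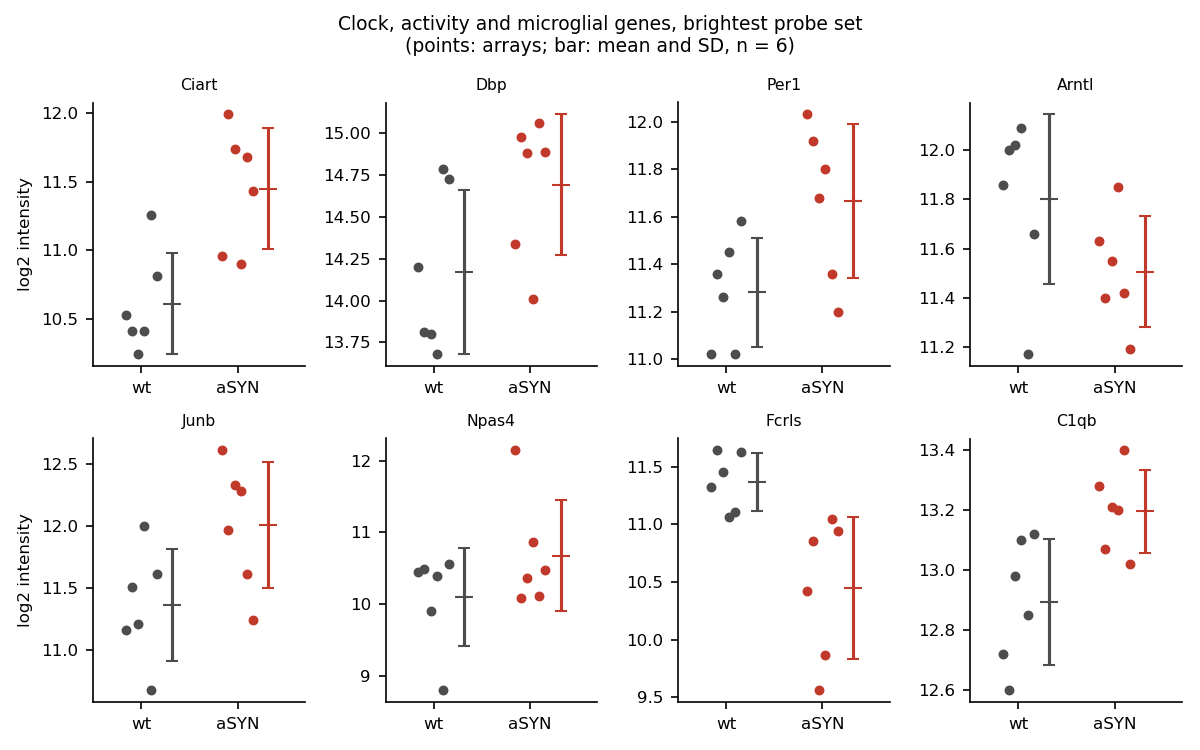
Log2 intensity of single arrays (points), with mean and SD, in 6 wt and 6 aSYN arrays for the clock genes Ciart, Dbp, Per1 and Arntl, the activity genes Junb and Npas4 and the microglial genes Fcrls and C1qb, at the brightest probe set of each. Fcrls alone of the 8 shows no overlap; Ciart, Dbp and Per1 average higher and Arntl lower in aSYN.

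Microglial genes were higher for 13 of 19 (median 0.13), yet the largest difference went the other way. Fcrls, a receptor that marks resident microglia, read 11.06, 11.39 and 11.64 in wt and 9.56, 10.64 and 11.05 in aSYN. No array overlapped, and it differed by -0.92, or 1.89-fold lower (95% interval -1.40 to -0.44, limma adjusted p = 0.241). The highest microglial gene was C1qb at 0.30, and Aif1, the calcium-binding protein IBA1, differed by 0.15 (95% interval -0.22 to 0.52). Among 24 genes of the interferon response and of MHC class I, 15 stood above and 9 below wt (median 0.094). Ifi27 read 12.72, 12.77 and 12.84 in wt and 12.86, 12.97 and 13.25 in aSYN, with no overlap and a difference of 0.22, against 0.11 at its other probe set. Ifit3 differed by 0.37 (95% interval -0.05 to 0.78). All of these stayed short of the adjusted threshold.

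Astrocyte genes were lower for 9 of 15 (median -0.013). Slc1a3, the glutamate transporter GLAST, read 13.98, 14.13 and 14.40 in wt and 13.78, 13.88 and 13.96 in aSYN. It differed by -0.26 (95% interval -0.42 to -0.10, limma adjusted p = 0.452) with no overlap, and its 3 other probe sets by -0.14, -0.18 and -0.21. Gfap, the intermediate filament of astrocytes that increases in gliosis, read 13.04, 13.38 and 13.55 in wt and 13.02, 13.24 and 14.46 in aSYN. Its difference of 0.16 (95% interval -0.34 to 0.66) became -0.0302 without aSYN replicate 1, which held the highest value. Of 13 reactive astrocyte and acute inflammation genes 9 were higher and 4 lower (median 0.0999, and -0.0241 without wt replicate 3). At an unadjusted limma p under 0.05, 1 was higher and 0 lower, against 2.24% and 2.16% of all genes. Dim probe sets were filtered anew in each fit, so these medians may not cover the same genes. Tspo, a mitochondrial protein of reactive glia, differed by -0.29 and Stat3 by -0.16. Timp1, a protease inhibitor of reactive astrocytes, read 5.36, 7.88 and 8.82 in wt and 7.68, 8.75 and 9.07 in aSYN, a difference of 1.20 in a dim probe set (95% interval 0.12 to 2.29, limma adjusted p = 0.875) that passed the dim filter in 13 of 23 alternative fits and was 0.791 without wt replicate 5.

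Oligodendrocyte and myelin genes were 9 higher and 9 lower (median -0.013). At an unadjusted limma p under 0.05, 2 were lower and 0 higher, against 2.16% and 2.24% of all genes. Ermn, a cytoskeletal protein of myelin sheaths, read 13.17, 13.30 and 13.60 in wt and 12.85, 13.16 and 13.21 in aSYN, a difference of -0.24, and -0.06 at its other probe set. Mobp, an abundant myelin protein, differed by -0.21, -0.19, -0.30 and 0.05, and Cnp, a myelin enzyme, by -0.21, -0.26 and -0.16. Cholesterol synthesis genes were higher for 16 of 19 (median 0.10), with 0 at an unadjusted p under 0.05 and Insig1, the sterol sensor, at 0.30 (95% interval -0.01 to 0.61). Cldn5, the tight junction protein of brain endothelium, read 12.44, 12.92 and 13.25 in wt and 12.08, 12.53 and 12.73 in aSYN, a difference of -0.45 with overlap, and 10 of 16 endothelial genes were lower. Meningeal genes were lower for 12 of 15, with the organic anion transporter Slc22a6 at -0.96 and the GABA transporter Slc6a13 at -0.57, both overlapping between groups. The meningeal median was -0.067, and -0.0089 without wt replicate 1. Ttr, the transthyretin of choroid plexus, differed by 0.07, -0.03, -0.07 and 0.07.

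**Figure D5:**
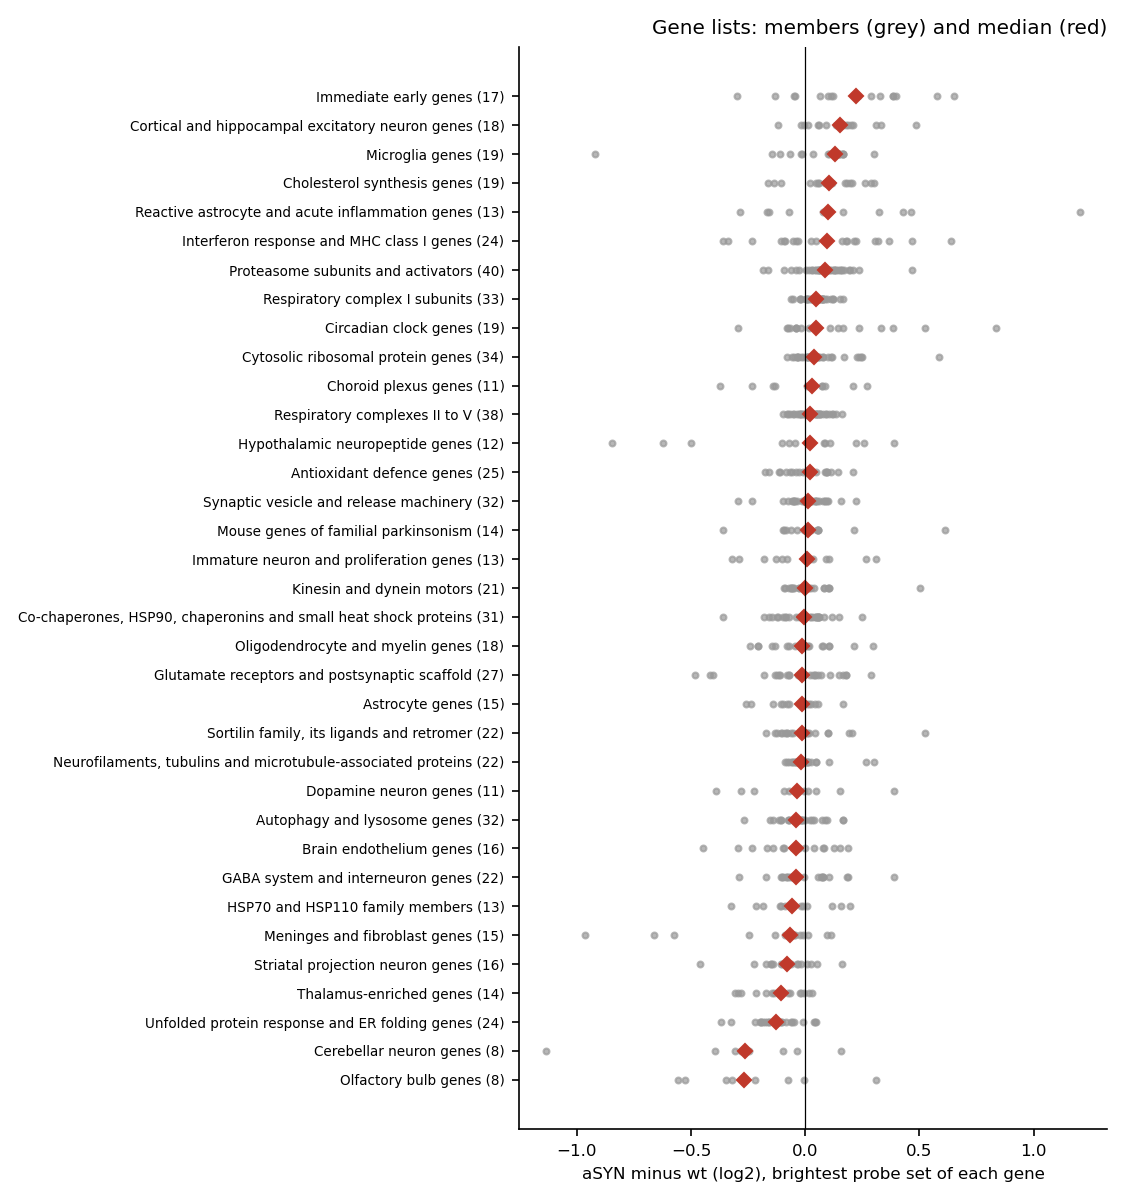
Difference aSYN minus wt (log2) of each tested gene at its brightest probe set (grey) and the median of its list (red), with the number of genes in brackets; lists of fewer than 8 genes are not drawn. Medians run from -0.27 for olfactory bulb genes to 0.22 for immediate early genes, and most lists hold members on both sides of 0.

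Region genes followed the arrays that stood apart. The summed intensity of 8 tested cerebellar genes was 189500 in wt replicate 1, 72970 to 81390 in the other wt arrays and 75300 to 81430 in aSYN. Their median difference was -0.27 with all arrays and 0.0764 without wt replicate 1. Cortical and hippocampal genes summed to 168200 in wt replicate 1, 221500 to 254300 in the other wt arrays and 229900 to 259500 in aSYN. They were higher for 15 of 18 with a median of 0.15, and 0.0795 without that array. Cux2, a factor of upper cortical layers, read 11.65, 12.25 and 12.60 in wt and 12.31, 12.65 and 13.21 in aSYN, a difference of 0.49 with overlap. Thalamic genes, a list that shares Cbln1 and Zic1 with the cerebellum, had a median of -0.11, and -0.00407 without wt replicate 1. The 4 tested pituitary hormone genes were all lower in the mean, with a median of -1.27, and -0.682 without wt replicate 5. Without that array Lhb was too dim to be tested, so the medians do not cover the same genes. Gh had a median of 9.01 in the other wt arrays and 8.97 in aSYN, and Prl of 7.22 and 8.24. Of the other regional lists, 7 of 8 tested olfactory bulb genes were lower, with a median of -0.27 that became -0.0902 without wt replicate 1 and -0.0713 without wt replicate 6. The olfactory genes summed to 26380 and 26230 in those arrays, against 17450 to 19530 in the other wt arrays and 17640 to 22210 in aSYN. The 12 hypothalamic neuropeptide genes were evenly divided, with a median of 0.019, or 0.144 without wt replicate 5, that turned sign in 8 of 23 fits. Summed intensity of the pituitary genes was 174600 in wt replicate 5 and 18100 in wt replicate 1, against 1393 to 5743 in the other wt arrays and 1816 to 2752 in aSYN. Sort1 1423363_at differed by -0.72 without wt replicate 1 and by -0.66 without wt replicate 5, where its limma adjusted p was 0.03 and 0.117.

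The intervals show how closely 6 arrays a group fixed a difference, before any adjustment for the number of probe sets. The median width of the 95% interval to either side was 0.30 log2 units for the brightest probe set of a gene, and 0.37 for all probe sets. The medians of the proteasome, complex I, ribosomal, cholesterol, immediate early, interferon and cortical lists stayed above 0 under all 23 alternative fits. Those of the unfolded protein response, HSP70, autophagy, striatal, astrocyte, endothelial, meningeal, pituitary, thalamic and olfactory bulb lists stayed below 0. Some came close to 0, as the thalamic one at -0.00407 without wt replicate 1. The fits reuse the same arrays, so a kept sign does not set a list apart. The clock median also did not turn sign but came down to 0.00129 without wt replicate 5, and the microglial one to 0.0482 with the 3' minus 5' covariate. Those of complexes II to V and of the motor, synaptic, familial parkinsonism, dopamine, cytoskeleton and myelin lists turned sign in at least 1 fit. For a typical gene a difference smaller than that width leaves 0 inside its interval, and a call after adjustment needed more. Map2 1421328_at at -0.70 and Rragd 1431164_at at -1.20 were not called. A p that missed the threshold does not show that levels were equal. Xist itself differed by 0.20 (95% interval -3.15 to 3.55). Read only within the arrays with high Xist, Sort1 1423363_at differed by -0.64, and within those with high Y-linked genes by -0.77. Fcrls gave -0.94 and -0.89 and Ciart 0.92 and 0.68, and the classes held 4 and 2 arrays of each group.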

How the data were processed

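Total RNA from whole brains was measured on Affymetrix mouse arrays, 1 per sample. The table deposited by the authors holds 1 intensity per probe set and array on a linear scale, as its values show. Every array had the same trimmed mean of 2500, so the deposited intensities were already scaled. The program that summarised and scaled them was not given in the sources used here. From these intensities log2(intensity + 16) was taken and quantile normalised over 24 arrays. The 64 control probe sets and the dimmest 40% were left out. A model with 1 mean per group was fitted with limma 3.58.1 in R 4.3.3, and aSYN minus wt was adjusted by Benjamini-Hochberg over 27022 probe sets, with a threshold of 0.05. Of 45101 probe sets 34958 have 1 gene symbol, 932 several and 9211 none here; lists were read at the brightest tested probe set of a gene. Array measures were compared with an exact permutation test over 924 splits. Genes named were the 12 of smallest p in each direction, the 3 members of smallest p in each list, and a fixed set of genes such as Sort1, Th and Gfap; other genes were named after their values were seen. The groups, lists and members were chosen with earlier results of these data known. The fit was tested on simulated data, and 23 alternative fits were run. Apart from the fit without the dim filter, each filtered dim probe sets anew, so a list could gain or lose dim members. The number of arrays limits the precision. One item is not reported here.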

Additional observations from a re-analysis of the deposited data

Results flagged for a closer look

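In groups of 6 arrays, 26 of 296 group values tested had 1 array far from the others by Dixon's criterion, where chance alone picks about 1 group in 20. Some of these lay in wt replicate 1: Car8 at 13.69, Cbln1 at 14.42, Atp1b2 at 15.28 and Nefl, the lowest of its group, at 15.68. Others lay in wt replicate 5, with Pomc high at 14.89, Htra2 high at 11.85 and Npas4 low at 8.80. In wt replicate 6 the low values were Bag1 at 13.89, Slc6a3 at 10.72 and Uqcr11 at 14.97. In wt replicate 4 Hspa1b was high at 13.66, Sox4 stood apart at 12.81 and Slc47a1 was at 8.20. In wt replicate 3 Hspa1a was at 10.25 and Lgals1 at 12.61. Among aSYN arrays, replicate 1 stood apart for Mobp at 16.21, Slc6a3 at 9.79 and Hbb-b2 at 5.55, and replicate 2 for Fdps at 14.19 and Timp1 at 7.68. Replicate 4 stood apart for Dcx at 10.13, Lrrk2 at 11.85 and Tm7sf2 at 11.41. Single genes were Rora at 13.16 in replicate 3, Hspa1a at 10.75 in replicate 5 and Pcp2 at 5.38 in replicate 6. The cause of these values was not tested.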

How the results depend on the processing

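The count of probe sets past limma's adjusted threshold, 1 in the reported fit, depended on the processing. It was 0 without quantile normalisation, without the dim filter, with the 12 arrays alone and with a sex covariate. It was also 0 with the 3' minus 5' covariate, which was added after seeing the data. In that order, the counts at an unadjusted p under 0.05 were 942, 1998, 2717, 1369 and 1231. The 1998 were out of 45037 probe sets tested, and the others out of 27022. The count past the adjusted threshold was 2 with a replicate block and 3 with a trended and robust variance. It was 36 without the 4 arrays of other groups that stood apart and 217 with array weights. Leaving out each array in turn gave 0 to 5 calls, with 5 without wt replicate 1. Probe sets wholly lower in aSYN numbered 146 and wholly higher 25 without quantile normalisation, where the median difference of all probe sets was -0.032. They numbered 259 to 365 and 109 to 188 with an array left out. Replicate numbers gave a correlation over 0.1 in 1 of 6 pairs. Yet 4 of 6 aSYN arrays correlated best with the wt array of their own number, where unrelated numbers would give about 1 of 6. The reported fit does not use replicate numbers, and with the replicate block the calls were Sort1 and Rragd. Of 148 named probe sets 12 turned sign under some of the 23 alternatives, and 0 of these had an unadjusted p under 0.05. Without quantile normalisation Ddc was -0.00733, Slc18a2 -0.0341, Sncg -0.0327 and Ttr -0.00479. With array weights Th was 0.0341 and Xist -0.0102, and with the sex covariate Xist was -0.226. With the 3' minus 5' covariate Alas2 was -0.16, Bpgm -0.0375 and Sncg -0.118. With an array left out, the values ran from -0.0769 to 0.103 for Th, -0.588 to 0.997 for Xist, -0.157 to 0.369 for Alas2, -0.0379 to 0.192 for Ddc, -0.0535 to 0.117 for Slc18a2, -0.0587 to 0.128 for Sncg, -0.0128 to 0.0821 for Bpgm, -0.0381 to 0.221 for Atp2a1 and -0.0302 to 0.257 for Gfap. Car8 ran from -0.579 to 0.101 and Cbln1 from -0.469 to 0.113, each above 0 only without wt replicate 1. The cause was not tested.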

Other observations

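Without the 4 arrays of the other groups that stood apart, 36 probe sets passed limma's adjusted threshold, 3 higher and 33 lower in aSYN. All 36 were also among the 217 called with array weights. Those 4 arrays had the lowest weights, 0.124 to 0.394, so both fits discount the same arrays and the overlap is not independent. Of the 36, 27 had all 6 aSYN arrays below all 6 wt arrays, against 0.822% of all tested probe sets, and a small p favours such probe sets. Of the 36, 30 were not the brightest probe set of their gene, where 10661 of the 23590 tested probe sets with 1 symbol are not the brightest. Beside the genes already described, they included Nedd4, a ubiquitin ligase that can tag alpha-synuclein, at -0.50, and Ogt, the enzyme that adds O-linked N-acetylglucosamine to proteins, at -0.56. Nbr1, an autophagy receptor, stood at -0.32, and Canx, the endoplasmic reticulum chaperone calnexin, at -0.30. Gja1, connexin 43 of astrocyte gap junctions, stood at -0.39. Nbea, neurobeachin of synaptic trafficking, differed by -0.46, Rabgap1 by -0.64, Uhmk1 by -0.76, Dixdc1 by -0.78 and Zfp106 by -0.88. In the reported fit the brightest probe sets lay nearer to 0 for several of these genes, with Gja1 at -0.01, Canx at -0.19, Nbr1 at -0.14, Ogt at -0.25, Zfp106 at -0.18, Rabgap1 at -0.17, Uhmk1 at -0.08 and Dixdc1 at -0.05. The higher ones were Dph5 at 0.55, Kif5c at 0.44 and Nus1, of dolichol synthesis, at 0.44, with -0.14 at its brightest probe set. These genes were chosen for naming after their values were seen, and the groups outside the comparison set the spread that decided the calls.

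Some bright probe sets divided the 12 arrays without regard to genotype or in part across it. They were picked after their values were seen, as the 10 genes of widest range among 7566 named probe sets with a mean above 12. Prune2 1432198_at read 8.25 in wt replicate 2 and at least 13.34 in the other 11 arrays. Pttg1 1438390_s_at, securin, read at most 11.12 in wt replicate 6 and aSYN replicate 2 and at least 15.06 in the others. Phgdh 1454714_x_at, the first enzyme of serine synthesis, read at most 9.79 in aSYN replicates 1 and 4 and at least 12.54 elsewhere. Cap1 1417462_at, an actin regulator, read at most 11.88 in wt replicate 6 and aSYN replicates 2 and 5, and at least 13.16 elsewhere. Khdrbs1 1438462_x_at, the RNA-binding protein SAM68, read at most 11.88 in 4 wt arrays and at least 12.89 in the other 2 and in all 6 aSYN arrays. It differed by 1.67 and did not pass limma's adjusted threshold. Camk2n1 1440455_at, an inhibitor of CaM kinase II, read at most 11.10 in wt replicates 2 and 5, the arrays in which Pink1 was low, and at least 12.33 in the others. The remaining genes were Erdr1, Arc and Cbln1, with ranges of 3.18, 2.89 and 2.91. The cause was not tested.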
